A study of Rattus norvegicus with 6 samples.

Results

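The renin-angiotensin system was read in the aorta of spontaneously hypertensive rats (SHR, an inbred strain with high blood pressure) through 5 genes, Agt, Ace, Agtr1a, Agtr1b and Agtr2. Every probe set, the group of short probes that reports 1 transcript on an Affymetrix chip, was taken whose single gene symbol in the platform annotation was one of these 5, and each was kept apart. They were 5 of 4736 genes named on the chip and had 12 of its 8799 probe sets, with 1 for Agt, 1 for Ace, 4 for Agtr1a, 4 for Agtr1b and 2 for Agtr2. A further probe set that carries the symbols of Ace and Ace3 together was not taken. Runners were SHR that had exercised voluntarily in wheel cages over 5 weeks, and non-runners were SHR that had not run. Both groups were of the same hypertensive strain, so the comparison is between hypertensive animals and holds no normotensive rats. There were 3 arrays per group, with RNA pooled from 3 aortae on each. The titles letter them A to C in both groups, and those of runners add D to F in brackets. The labels give no age, sex or order of collection and do not say how animals were shared among pools, so p-values measure only the spread between these pools.

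In this system the plasma protein angiotensinogen (Agt) is cut to angiotensin I, which angiotensin-converting enzyme (Ace) on endothelial and other cells turns into angiotensin II. Angiotensin II constricts vessels and promotes growth of the wall through AT1 receptors, of which rats have a pair of closely related genes, Agtr1a and Agtr1b, while the AT2 receptor (Agtr2) is known for opposing effects and for high levels before birth. Agt is made mainly by the liver but also in fat around vessels, and Agtr1a is the main receptor form of vascular smooth muscle.

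No probe set of these genes passed the test between aortae of runners and non-runners. Agt and Ace had nearly equal means in both groups, the detected probe sets of Agtr1a had log2 differences of -0.24 to 0.00, and both Agtr2 probe sets were near the bottom of the intensity scale. By limma, 0 of the 7 probe sets kept by the filter on dim probe sets passed an adjusted p under 0.05, against 0% of all 5244 tested probe sets. At an unadjusted p under 0.05 the count was also 0 of 7, against 8.07% of all tested. On the intensities as deposited, probe sets whose groups did not overlap numbered 0 of the 7, against 14.9% of all tested. They numbered 0 of all 12, of which 5 were not tested. The smallest adjusted p among the 7 was 0.748 by limma, for 2 Agtr1b probe sets. Neither of these 2 lay above the control level, defined below, on all arrays. The 7 had a median log2 difference (runner minus non-runner, on the log2(intensity + 2.4) scale) of -0.05, with 2 higher and 5 lower. All tested probe sets had a median of -0.01 and 50.8% were lower. Of the 2 higher, the Agtr1a probe set M86912exon_g_at was at 0.00 when rounded, so the split is not read as a direction. For 6 of the 7 the difference was under 0.25 in size, as it was for 66.7% of all tested probe sets.

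The aortic arrays held bright smooth muscle transcripts, and fat was also present. Acta2, smooth muscle actin, ran from 2913 to 4648 over the 6 arrays, and Ucp1, which uncouples respiration in brown fat, from 764.3 to 1582. Myh11, the smooth muscle myosin heavy chain, averaged 1939 ± 32.5 and 1737 ± 170.2 (non-runners and runners, SD, n = 3). Of 8 fibroblast markers 3 were higher and 5 lower, with a median log2 difference of -0.10 and 0 past an adjusted p under 0.05 by limma. For 4 of the 8 the groups did not overlap, against 14.9% of all tested probe sets. Dcn, the proteoglycan decorin, averaged 3947 ± 189.3 and 3268 ± 57.2 in its brightest probe set, a sign held by 1 of its 4 tested probe sets. Non-runner B stood apart, with the highest 3'/5' intensity ratio of the beta-actin control, 2.14 against 1.22 to 1.67 on the other arrays. As no detection calls came with the values, a control level of 40.8 was used, the 95th percentile of 19 control probe sets that match yeast genes or the sense strand. On each array 55.4% to 57.5% of the probe sets lay below it. By this measure 5 of the 12 renin-angiotensin probe sets lay above the control level on all 6 arrays, 1 on 2 arrays and 6 on none.

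**Figure D1:**
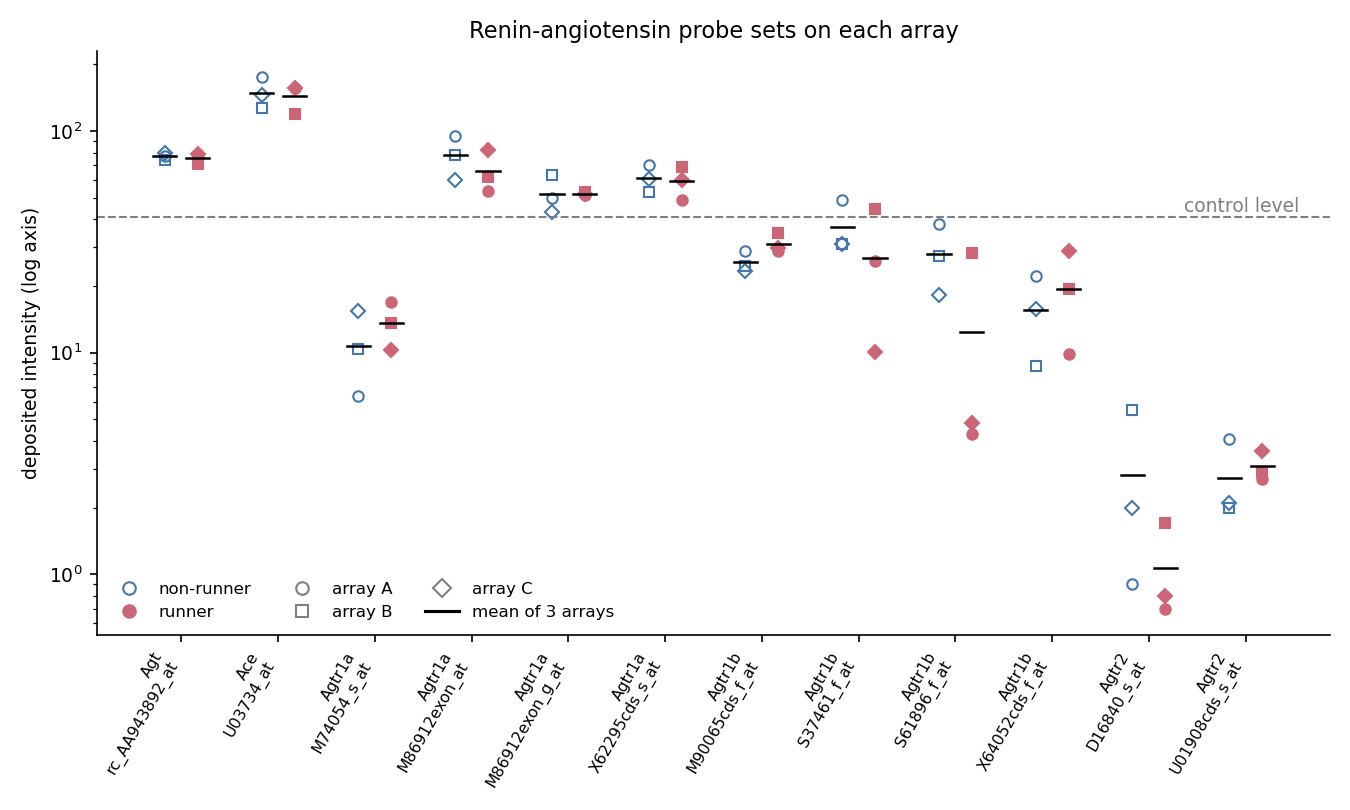
Deposited intensity (log axis) of the 12 probe sets on each array, with non-runners as open and runners as filled symbols, the array letter as symbol shape, the mean of 3 arrays as a bar and the control level of 40.8 as a dashed line. Agt, Ace and 3 Agtr1a probe sets lie above the line on all 6 arrays, both Agtr2 probe sets lie far below it, and the groups overlap in every column.

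Agt, the precursor of all angiotensin peptides, was the steadiest of the 12 probe sets. Probe set rc_AA943892_at measured 77.6, 73.9 and 80.1 on non-runners A, B and C. It measured 76.6, 71.4 and 79.1 on runners A, B and C. All 6 values lay within a ratio of 1.12, and the groups overlapped throughout. The means were 77.2 ± 3.12 for non-runners against 75.7 ± 3.93 for runners (intensity, SD, n = 3). The log2 difference was -0.04 ± 0.14 (SE) with an adjusted p of 0.954 by limma. Its 95% interval ran from -0.36 to 0.28, which as a ratio of runners to non-runners is 0.779 to 1.22. This interval uses an SE in which limma draws each probe set's spread toward that of the others, and the probe set's own residual SD, 0.072 on the log2 scale, was smaller. Of 608 tested probe sets within 0.25 of its mean log2 level, 1.97% had a smaller residual SD, and their median was 0.226.

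Brown fat markers varied far more between arrays than Agt did, while for adipocyte markers this rested on non-runner B. The summed intensity of 9 adipocyte markers on the chip ran from 2860 to 3829 in non-runners and from 3452 to 3763 in runners. That of 5 brown fat markers ran from 1460 to 2846 and from 1606 to 2790. Their list scores, the mean log2 level of the tested genes centred on the 6 arrays, were lowest on non-runner B, at -0.47 for adipocyte and -0.69 for brown fat markers. On the same array Agt was at -0.05 on the same centred log2 scale, and over all arrays it stayed between -0.10 and 0.10. Outside non-runner B the adipocyte score ran from 0.03 to 0.18. Of the 9 adipocyte markers 7 were higher and 2 lower in runners, with a median log2 difference of 0.12, and 0 passed an adjusted p under 0.05 by limma. Fabp4, a fatty acid binding protein, was at 485.2 ± 71.0 for non-runners against 676.1 ± 68.0 for runners. Lpl, lipoprotein lipase, went the other way, at 819.2 ± 61.3 against 624.7 ± 40.9, and was picked out after its values were seen. Adipoq was not among the named probe sets. In pooled tissue, fewer cells of a type and less RNA per cell cannot be told apart.

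Ace, the enzyme that makes angiotensin II and breaks down bradykinin, lay above the control level on every array in both groups. Probe set U03734_at measured 175.0, 127.2 and 145.1 on non-runners A, B and C. It measured 156.2, 119.0 and 156.3 on runners A, B and C. Non-runner A was highest and runner B lowest, so the runner values lay inside the range of non-runners apart from runner B, just below it. The means were 149.1 ± 24.1 and 143.8 ± 21.5 (SD, n = 3), with a log2 difference of -0.05 ± 0.19 (SE) and an adjusted p of 0.956 by limma. The 95% interval of the ratio of runners to non-runners was 0.719 to 1.3. The residual SD, 0.226, was close to the median of 0.22 over 444 tested probe sets of like level.

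Endothelial markers, of the cells that carry Ace, were mostly lower in runners, but none passed the test. Of 7 tested markers 6 were lower and 1 higher, with a median log2 difference of -0.30. The count at an adjusted p under 0.05 by limma was 0, and 3 were lower at an unadjusted p under 0.05. Of the 7 tested, 4 lay above the control level on all 6 arrays. The summed intensity of the 10 on the chip was 592.5 to 750.2 in non-runners and 582.4 to 588.2 in runners. Pecam1, an adhesion molecule of endothelium, measured 133.5 ± 58.3 and 171 ± 12. Nos3, the endothelial nitric oxide synthase, measured 87.9 ± 17.3 and 62.1 ± 10.6, and Vwf, of endothelial storage granules, was too dim to be tested. The 2 markers whose groups did not overlap, picked out after their values were seen, were Egfl7 and Flt1. Egfl7, secreted by endothelium, measured 118.8 ± 28.3 in non-runners against 28.6 ± 12.3 in runners, where all arrays lay below the control level (limma adjusted p = 0.229). Flt1, a VEGF receptor, measured 63.6 ± 3.44 against 47.0 ± 9.41. Nerve and Schwann cell markers were lower in runners too, 5 of 5 tested, with a median log2 difference of -0.43. Of these, 3 had an unadjusted p under 0.05, 3 had groups that did not overlap, and 0 passed an adjusted p under 0.05 by limma. Over all tested probe sets, 8.07% had an unadjusted p under 0.05 by limma and 14.9% had groups that did not overlap. Only 2 of the 5, S100b and Pmp22, lay above the control level on all arrays. The part of endothelial or nerve content in the Ace values was not tested.

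**Figure D2:**
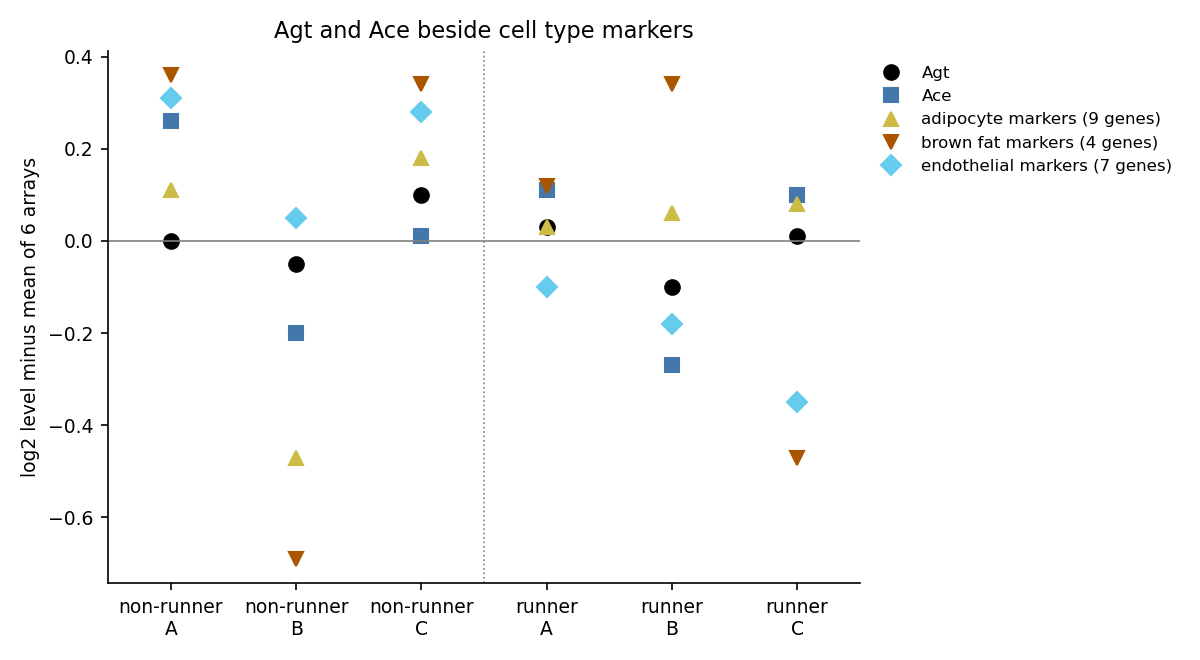
Log2 level of Agt and Ace on each array, and scores of adipocyte, brown fat and endothelial markers, each centred on its own 6-array mean; the dotted line separates non-runners from runners. Agt stays within 0.10 of its mean on every array, while brown fat markers run from -0.69 to 0.36.

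Agtr1a, the main AT1 receptor gene of smooth muscle, had 4 probe sets, of which 3 lay above the control level on all arrays. None of the 4 lay above the highest value of the control probe sets, 55.4, on all arrays. M86912exon_at measured 94.9, 78.4 and 60.3 on non-runners A, B and C. It measured 53.9, 62.0 and 81.8 on runners A, B and C. Each group spread over a range wider than the gap between their means, 77.9 ± 17.3 and 65.9 ± 14.4 (SD, n = 3), and the groups overlapped. The log2 difference was -0.24 ± 0.20 (SE) with an adjusted p of 0.775 by limma, and the 95% interval of the ratio was 0.613 to 1.17.

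M86912exon_g_at, which has the same sequence record in its name, measured 50.1, 63.7 and 43.0 on non-runners A, B and C. It measured 51.4, 53.1 and 51.9 on runners A, B and C. The runner arrays were close together (SD 0.87) inside the wider non-runner range (SD 10.5), with means of 52.1 and 52.3. The log2 difference was 0.00 ± 0.17 (SE, limma adjusted p = 0.996). Its sign was negative in 2 of 10 alternatives that kept all arrays, so it has no direction.

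X62295cds_s_at measured 70.2, 53.0 and 60.8 on non-runners A, B and C. It measured 49.1, 68.9 and 60.1 on runners A, B and C. The log2 difference was -0.07 ± 0.17 (SE, limma adjusted p = 0.926), and the 95% interval of the ratio was 0.721 to 1.26. The groups covered nearly the same range. M74054_s_at, the last Agtr1a probe set, was below the control level on all 6 arrays, at 6.4, 10.4 and 15.4 in non-runners and 17, 13.6 and 10.3 in runners, and was not tested.

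Probe sets of Agtr1a did not rise and fall together across the 6 arrays. Within genes, 13 pairs of probe sets were compared on log2 levels, and 6 had a Pearson r above 0 and 7 below. After Benjamini-Hochberg adjustment over the 13, 0 pairs had an exact permutation p under 0.05, with a smallest adjusted p of 0.0722 for r and 0.217 for Spearman's rho. The lowest was that of M74054_s_at with M86912exon_at (r = -0.97, rho = -0.94, unadjusted exact permutation p = 0.00833 and 0.0167, n = 6 arrays). It was -0.91 without the 2 arrays farthest from the median. Both are annotated to Agtr1a, yet one was high where the other was low, and the dim one lay below the control level throughout. M86912exon_at and M86912exon_g_at had r = 0.09 and rho = -0.31 (exact permutation p = 0.867 and 0.564, n = 6, adjusted p = 0.956 and 0.928).

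Agtr1b, the second AT1 receptor gene, had 4 probe sets, all of the family type (suffix f), whose probes can be shared by related sequences. As the coding sequences of Agtr1a and Agtr1b are nearly identical, these signals may hold RNA of either gene and are uncertain as a measure of Agtr1b. Whether the probe sets annotated to Agtr1a also take up Agtr1b RNA was not checked. None of the 4 Agtr1b probe sets lay above the control level on all arrays. S37461_f_at lay above it on non-runner A and runner B only, at 48.9, 30.8 and 31.1 on non-runners A, B and C. It measured 25.9, 44.4 and 10.1 on runners A, B and C. The lowest value, on runner C, and the value above the control level on runner B fell in the same group, and the groups overlapped. The log2 difference was -0.64 ± 0.46 (SE, limma adjusted p = 0.748), with a 95% interval of -1.70 to 0.41. Of 712 tested probe sets of like level, 96.2% had a smaller residual SD. Without runner B the log2 difference was -1.10 (limma unadjusted p = 0.029, adjusted p = 0.873), and without runner C it was -0.08.

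M90065cds_f_at measured 28.9, 24.7 and 23.5 on non-runners A, B and C. It measured 28.7, 34.8 and 29.8 on runners A, B and C. Runners B and C lay above every non-runner, and runner A just below non-runner A, with all values below the control level. As both groups lay below the control level no difference is read from it, and its adjusted p by limma was 0.748. Of 712 tested probe sets of like level, 6.32% had a smaller residual SD.

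The other two Agtr1b probe sets were too dim to be tested and lay below the control level on all arrays, so no fold is given. S61896_f_at measured 38.0, 27.2 and 18.2 on non-runners A, B and C and 4.3, 28.2 and 4.8 on runners A, B and C. Runners A and C were the lowest, while runner B lay inside the non-runner range. Without the filter on dim probe sets its unadjusted p by limma was 0.0513, the smallest of the 12, and its adjusted p 0.715. X64052cds_f_at measured 22.1, 8.7 and 15.8 in non-runners and 9.9, 19.3 and 28.8 in runners. S37461_f_at and S61896_f_at had the highest correlation of the 13 pairs (r = 0.82, rho = 0.83, exact permutation p = 0.0111 and 0.0583, n = 6, adjusted p = 0.0722 and 0.379). It was 0.73 without the 2 arrays farthest from the median.

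Agtr2, the AT2 receptor, was not detectable above the control level in either group. D16840_s_at measured 0.9, 5.5 and 2.0 on non-runners A, B and C and 0.7, 1.7 and 0.8 on runners A, B and C. U01908cds_s_at measured 4.1, 2.0 and 2.1 in non-runners and 2.7, 2.9 and 3.6 in runners. Both were of the order of the pseudocount of 2.4 and were not tested. At these intensities neither a difference nor its absence could be shown.

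**Figure D3:**
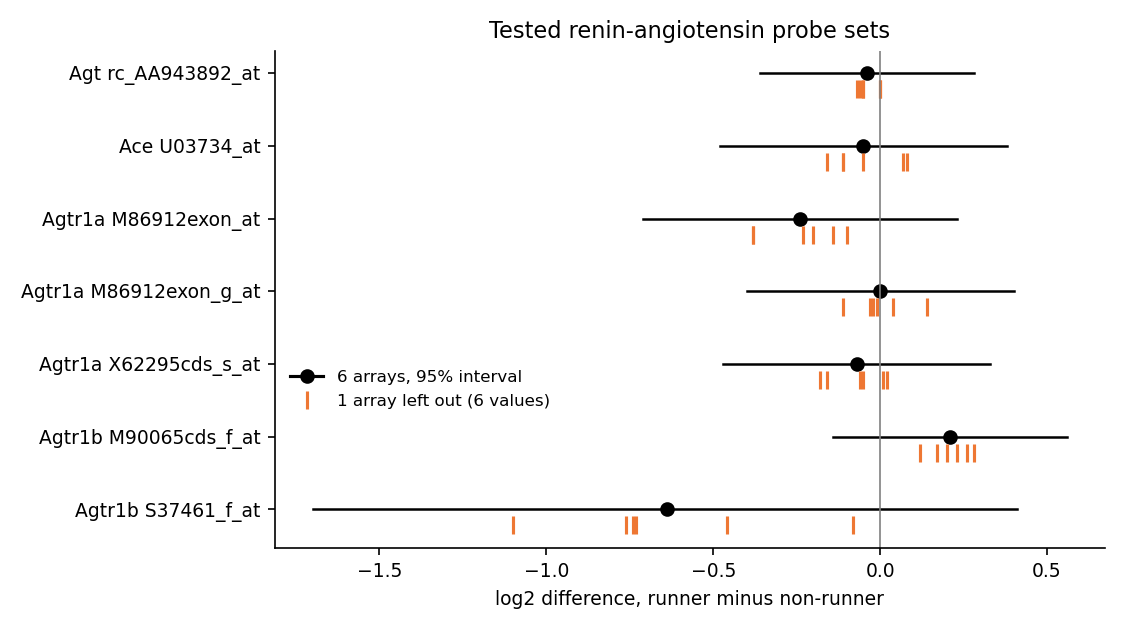
Log2 difference (runner minus non-runner) of the 7 tested probe sets, with points and lines for 6 arrays and the 95% interval, and ticks for the values with 1 array left out. The Agtr1b probe set M90065cds_f_at lay below the control level on all arrays. Every interval includes 0, and the widest, that of the Agtr1b probe set S37461_f_at, runs from -1.70 to 0.41.

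The genes whose pattern over the 6 arrays was most like that of each detected gene were listed by Pearson r of log2 levels, as a description of 6 shared arrays. For Agt they were Nipbl, a cohesin loader (r = 0.987), A2m, the protease inhibitor alpha-2-macroglobulin (0.986), and Stat6, a cytokine-activated transcription factor (0.964). A2m lay below the control level on all arrays, and Nipbl lay above it on only 2 of 6. For Ace they were Idh3g, a subunit of a citric acid cycle enzyme (0.992), Bcat2, which acts on branched-chain amino acids (0.97), and Mgat1, of glycoprotein processing (0.956). For Agtr1a M86912exon_at they were Smc1a, a cohesin subunit (0.983), Icam1, an adhesion molecule (0.977), and Nrn1, neuritin (0.965). Nrn1 lay above the control level on 4 of 6 arrays. Icam1 is also on the list of angiotensin II-responsive genes, but its 2 tested probe sets had log2 differences of opposite sign. The likeness is to 1 Agtr1a probe set, whose r with M86912exon_g_at and X62295cds_s_at of the same gene was 0.09 and 0.28. An r of at least 0.9 was reached by 18 of 4321 probe sets compared for Agt, 20 of 4321 for Ace and 36 of 4319 for Agtr1a.

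Among other enzymes that act on angiotensin peptides, none passed the test. Of 17 listed, 13 had a probe set and 11 were tested, 5 higher and 6 lower, with a median log2 difference of -0.01. The count at an adjusted p under 0.05 by limma was 0, and 1 gene was higher at an unadjusted p under 0.05. That gene was Ctsd, the lysosomal protease cathepsin D, at 398.3 ± 73.6 for non-runners against 532.6 ± 31.5 for runners (0.45 ± 0.18 as log2 difference with SE, limma adjusted p = 0.586), with groups that did not overlap. Mme, neprilysin, which cuts angiotensin and natriuretic peptides, measured 22.1 ± 1.40 and 18.9 ± 0.31, below the control level on all arrays. Rnpep, aminopeptidase B, measured 66.3 ± 3.02 and 58.9 ± 8.5. Cma1, mast cell chymase, measured 61.9 ± 4.10 and 55.9 ± 9.03.

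Among partners of the receptors, none passed the test. Of 12 listed, 6 were on the chip and 4 tested, 3 higher and 1 lower, with a median of 0.01 and 0 at an unadjusted p under 0.05 by limma. Grk2, a kinase that desensitises receptors, measured 66.4 ± 5.25 and 67.9 ± 1.29. Arrb2, a beta-arrestin, measured 49.9 ± 3.97 and 52.1 ± 3.58. Grk5, another receptor kinase, measured 41.1 ± 8.04 and 38.6 ± 5.11. Rgs4, which shortens G protein signals, measured 29.2 ± 8.28 and 29.7 ± 4.35, below the control level.

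Of 31 genes of AT1 receptor signalling, 19 were tested, 5 higher and 14 lower, with a median of -0.09. By limma 0 passed an adjusted p under 0.05, and 2 were higher and 1 lower at an unadjusted p under 0.05. Itpr3, a calcium release channel opened by inositol trisphosphate, measured 195.0 ± 15.3 for non-runners against 137.6 ± 8.46 for runners (-0.49 ± 0.14 as log2 difference with SE, limma adjusted p = 0.484). Another probe set of Itpr3 had the opposite sign. Rhoa, which sensitises the contractile apparatus to calcium, measured 197.6 ± 81.3 and 322.7 ± 20.0 (0.79 ± 0.31, adjusted p = 0.585), with 109.7 on non-runner B. Egfr, the EGF receptor, measured 20.1 ± 5.15 and 33.0 ± 5.61, below the control level on all arrays. Plcb3, a phospholipase C, measured 38.4 ± 11.9 and 31.7 ± 6.70.

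Genes known to respond to angiotensin II had no common direction. Of 25 listed, 18 were tested, 8 higher and 10 lower, with a median of -0.05. By limma 0 passed an adjusted p under 0.05, and 1 was lower at an unadjusted p under 0.05. Nr4a3, an early-response nuclear receptor, measured 183.5 ± 14.8 for non-runners against 140.8 ± 17.3 for runners (-0.38 ± 0.16 as log2 difference with SE, limma adjusted p = 0.611). Ccl2, a monocyte chemokine, measured 64.9 ± 22.8 and 84.8 ± 3.36, and Vcam1, an adhesion molecule, 232.9 ± 59.2 and 290.3 ± 22.6. Tnc, tenascin C, measured 53.4 ± 19.0 and 32.4 ± 36.3, with 74.3 on runner C and under 12 on the other runner arrays.

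The aldosterone axis was represented by 2 tested genes of 5. Nr3c2, the mineralocorticoid receptor, measured 51.2 ± 3.67 and 51.7 ± 2.86, and Sgk1, a kinase it induces, 58.3 ± 15.2 and 53.5 ± 12.1. Of 12 transcription factors known to act on the Agt promoter, 8 were tested, 4 higher and 4 lower, with a median of 0.03 and 0 at an adjusted p under 0.05 by limma. Cebpd, an acute-phase factor, measured 126.4 ± 24.9 for non-runners against 81.8 ± 12.3 for runners (-0.61 ± 0.19 as log2 difference with SE, limma adjusted p = 0.515), with groups that did not overlap, and 2 of its 3 tested probe sets had that sign. Cebpa measured 26.2 ± 17.2 and 39.8 ± 5.67, with 6.5 on non-runner B. Nfkb1, a subunit of NF-kappa-B, measured 209.2 ± 40.2 and 170.3 ± 18.1, and Usf1 139.6 ± 10.2 and 154.6 ± 5.36.

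**Figure D4:**
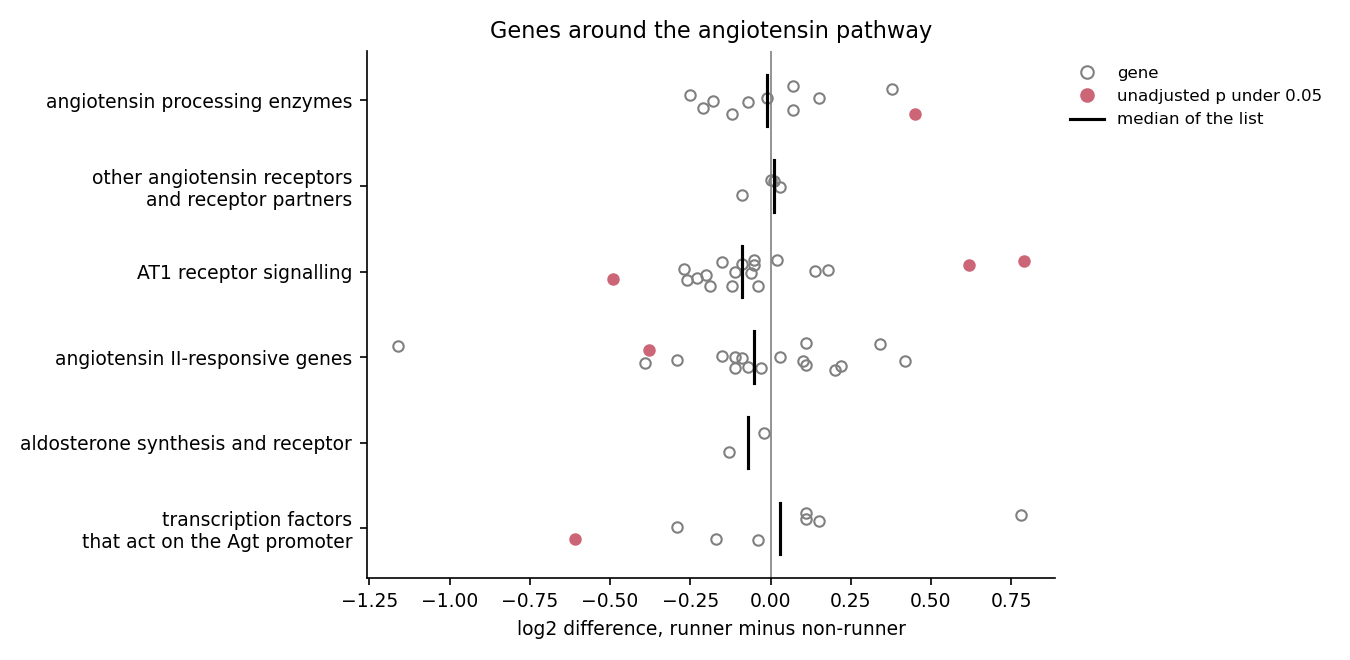
Log2 difference (runner minus non-runner) of the brightest tested probe set of each gene in 6 lists around the angiotensin pathway, with filled points for an unadjusted p under 0.05 and a bar for the median of the list. The medians lie between -0.09 and 0.03, and 0 genes passed an adjusted p under 0.05 by limma.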

How the data were processed

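Linear intensities, as deposited, gave 1 value for every probe set on an array. The trimmed mean of each array was near 100. Which software made the values is not given in the sources used. Names came from the platform annotation, where 7006 probe sets had 1 symbol, 308 several and 1426 none. A pseudocount of 2.4, the 10th percentile of positive values, was added before taking log2. Quantile normalization followed, since array medians differed by more than the limit of 10%. The 59 control probe sets were left out, as were 40% of the rest with the lowest mean log2 level. The remaining 5244 were fitted with limma 3.58.1 (R 4.3.3), and two-sided p-values were adjusted by Benjamini-Hochberg to a threshold of 0.05. The fit was tested on simulated data. The simulated differences were larger than those of the 7 tested renin-angiotensin probe sets, so recovery of smaller ones was not tested. Intensities in the text are as deposited. An exact permutation of 3 and 3 arrays has a smallest p of 0.1.

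The genes and lists were chosen with earlier results of these data known. Named were all 12 probe sets, up to 4 genes of each pathway list with the smallest p, fixed markers, and the 3 genes most alike in pattern. The number of arrays limits the precision. Lists use the brightest tested probe set of each gene. Marker lists for smooth muscle (median log2 difference 0.01), macrophages (0.13), mast cells (-0.08) and brown fat (0.04) were also measured, each with 0 genes past limma's threshold. Alternatives varied the pseudocount, normalization, filter, variance model, array weights, a beta-actin ratio covariate, the chip letter and the arrays used.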

Additional observations from a re-analysis of the deposited data

How the results depend on the processing

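Of the 12 probe sets, 7 were tested in most alternatives, 5 with the dimmest 60% left out and all 12 only without the filter. In each of the 16 alternatives 0 of those tested passed limma's adjusted threshold. The smallest adjusted p among them was 0.597 (without non-runner A). With a replicate block on the chip letter the count over all tested probe sets was also 0, with 357 at an unadjusted p under 0.05 against 423; arrays of the same letter did not deviate together (r of -0.0854, -0.0412 and -0.0506), so the letters were not taken as pairs. Over all tested probe sets, array weights called 1 lower, and leaving out each array called 0 to 4 higher (4 without non-runner C, 1 without non-runner A) and 0 to 1 lower (1 without non-runner A). With the highest control value, 55.4, as the control level, 2 of the 12 lay above it on all arrays in place of 5. The 2 were Agt and Ace, so detection of Agtr1a on all arrays depended on the control level chosen.

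Directions near 0 changed. Agtr1a M86912exon_g_at turned from just above 0 to just below it with a pseudocount of 16 (0.00 when rounded) and to -0.04 with median centring. As arrays were left out it ran from -0.11 to 0.14, Agt from -0.07 to 0.00, Ace from -0.16 to 0.08 and Agtr1a X62295cds_s_at from -0.18 to 0.02. As arrays were left out, Agtr1a M86912exon_at stayed between -0.38 and -0.10 and Agtr1b S37461_f_at between -1.10 and -0.08. With the beta-actin 3'/5' ratio as covariate the difference of Ace was -0.29 (limma adjusted p = 0.949) and that of Agtr1a M86912exon_at -0.39. The cause of these shifts was not tested. Centring on medians moved the median of all tested probe sets to -0.045. Signal below the control level on most or all arrays limits what can be said of Agtr1b and Agtr2.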
